A study of Homo sapiens with 24 samples.

Results

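Mitochondrial ribosomal protein genes are the nuclear genes whose symbols begin with MRPL (large subunit) or MRPS (small subunit) followed by a number. They were taken by symbol from the array annotation, 1 pseudogene was left out, and only probe sets naming a single gene were kept, with the brightest standing for a gene that had several. This gave 73 genes of the 18417 on the arrays, 48 named MRPL and 25 named MRPS. MRPS18A and MRPS30 carry small-subunit names but are known from structures to sit in the large subunit, so 50 genes were counted as large-subunit and 23 as small-subunit genes. A further 4 probe sets naming MRPL51, MRPS6, MRPS24 or MRPS28 together with another gene were not used here.

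RNA was measured in 2 cell lines grown from inflammatory breast cancer. SUM149PT carries the p53 change M237I and SUM190PT the p53 change Q317X, and both are labelled ER(-). For 48 h each line received CG-1521, an inhibitor of histone deacetylases, 10 nM 17β-estradiol, both agents together, or the ethanol and DMSO vehicle. The CG-1521 dose was 7.5 µM in SUM149PT and 5 µM in SUM190PT. SUM149PT was treated in medium with serum and SUM190PT in medium without it, so line, dose and medium cannot be told apart in any comparison between lines. Each of the 8 groups had 3 arrays, from independent experiments.

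Mitochondrial ribosomes translate the few messages of the mitochondrial genome, all of which encode membrane-embedded subunits of the respiratory chain and ATP synthase. Their RNAs come from mitochondrial DNA, whereas every protein of both subunits is encoded in the nucleus, made in the cytosol and imported. Some of these proteins have bacterial counterparts, and others were added in the mitochondrial lineage. Nuclear genes of mitochondrial translation often have promoters with sites for NRF1 and for ETS-family factors such as GABPA.

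All 24 arrays carried epithelial markers at a mean log2 level of 11.12 to 11.22 in SUM149PT and 11.35 to 11.76 in SUM190PT, whereas leukocyte markers stayed between 3.85 and 4.36 across both lines. KRT5, a basal keratin, lay at 9.73 to 10.52 in SUM149PT and 4.88 to 5.87 in SUM190PT, and ERBB2 at 6.68 to 7.25 in SUM149PT and 11.89 to 12.85 in SUM190PT. Of the other basal and luminal markers measured, EGFR, FOXA1 and SPDEF did not overlap between the lines. KRT14 (7.21 to 8.13 in SUM149PT and 6.43 to 7.35 in SUM190PT), KRT7 (11.08 to 11.84 and 11.56 to 11.93) and GATA3 (6.27 to 7.77 and 7.43 to 9.52) did. Arrays of 1 group correlated at 0.9946 to 0.996 in SUM149PT and at 0.9807 to 0.9957 in SUM190PT, where vehicle array 3 and estradiol array 3 stood apart from their groups. Values for SUM190PT are therefore given with and without those 2 arrays where the count of genes moved. In such cultures, fewer cells expressing a gene and less of its RNA per cell cannot be told apart.

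Promoter sequences are shown for the 3 genes that CG-1521 raised in SUM149PT (MRPL36, MRPS18C and MRPS33). They are also shown for 4 of the genes whose CG-1521 response differed between the lines (MRPL52, MRPS31, MRPL18 and MRPL1), chosen after their values were seen. Each is a 250-base RefSeq promoter window on GRCh38.p14, in lower case and 5′ to 3′ on the gene's own strand, with capitals marking motif matches on either strand. The windows end at the RefSeq gene start, except that of MRPL36. The MRPL36 window lies inside the gene, which spans chr5:1798385-1801434. They lie at chr5:1799838-1800087 for MRPL36, chr7:141014953-141015202 for MRPS33 and chr13:40771191-40771440 for MRPS31 on the minus strand. On the plus strand are chr4:83455808-83456057 for MRPS18C, chr14:22829637-22829886 for MRPL52, chr6:159789562-159789811 for MRPL18 and chr4:77862580-77862829 for MRPL1.
MRPL36: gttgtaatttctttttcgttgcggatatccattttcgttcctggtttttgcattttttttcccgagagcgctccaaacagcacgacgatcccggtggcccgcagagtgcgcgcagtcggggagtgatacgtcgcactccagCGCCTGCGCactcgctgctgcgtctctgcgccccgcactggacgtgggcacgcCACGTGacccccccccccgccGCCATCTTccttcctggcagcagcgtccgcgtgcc
MRPS18C: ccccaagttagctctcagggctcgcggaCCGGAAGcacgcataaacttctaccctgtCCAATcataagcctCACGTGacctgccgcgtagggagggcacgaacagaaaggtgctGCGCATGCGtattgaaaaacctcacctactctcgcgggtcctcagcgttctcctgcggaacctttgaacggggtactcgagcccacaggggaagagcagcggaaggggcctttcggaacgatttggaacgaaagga
MRPS33: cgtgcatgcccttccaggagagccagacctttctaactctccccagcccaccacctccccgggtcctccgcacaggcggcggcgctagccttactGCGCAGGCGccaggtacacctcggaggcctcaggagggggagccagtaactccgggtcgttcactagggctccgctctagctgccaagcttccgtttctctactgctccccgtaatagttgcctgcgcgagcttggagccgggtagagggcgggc
MRPL52: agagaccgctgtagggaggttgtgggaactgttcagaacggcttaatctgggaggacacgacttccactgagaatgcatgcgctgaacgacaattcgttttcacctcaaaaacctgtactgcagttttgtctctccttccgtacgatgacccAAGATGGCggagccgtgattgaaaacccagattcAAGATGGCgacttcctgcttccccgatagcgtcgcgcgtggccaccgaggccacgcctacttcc
MRPS31: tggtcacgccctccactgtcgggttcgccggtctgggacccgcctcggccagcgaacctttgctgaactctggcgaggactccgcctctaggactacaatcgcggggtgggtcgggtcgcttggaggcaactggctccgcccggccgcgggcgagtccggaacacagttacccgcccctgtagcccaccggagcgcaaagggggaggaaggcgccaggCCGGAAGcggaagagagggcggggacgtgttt
MRPL18: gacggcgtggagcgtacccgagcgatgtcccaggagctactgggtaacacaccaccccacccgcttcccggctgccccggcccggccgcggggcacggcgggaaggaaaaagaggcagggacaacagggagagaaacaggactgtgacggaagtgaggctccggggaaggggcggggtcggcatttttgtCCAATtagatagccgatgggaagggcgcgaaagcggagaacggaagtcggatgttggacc
MRPL1: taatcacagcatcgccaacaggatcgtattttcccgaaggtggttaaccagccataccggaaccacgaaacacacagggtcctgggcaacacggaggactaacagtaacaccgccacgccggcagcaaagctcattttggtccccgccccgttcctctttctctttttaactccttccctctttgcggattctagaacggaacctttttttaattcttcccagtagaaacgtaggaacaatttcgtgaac

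For NRF1 the letters searched were GCGCANGCG. CCGGAAG stood for the core bound by ETS-family factors. AAGATGGC stood for the site of the factor YY1. CACGTG was searched as the E-box that MYC and related factors bind. The CCAAT box was searched as the 5 letters of its name. GAANNTTC stood for the heat shock element. The 3 genes raised by CG-1521 in SUM149PT each held an NRF1 core, that of MRPL36 in a window inside the gene. MRPS18C held an ETS core, an E-box and a CCAAT box as well, and MRPL36 a YY1 match and an E-box. MRPL52 held 2 YY1 matches, MRPS31 an ETS core and MRPL18 a CCAAT box, while these letters did not occur in the MRPL1 window. No 2 matches overlapped in the 7 windows.

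A promoter was found in RefSeq for 66 of the 73 genes. The ETS core stood in 22 of the 66 (33.3%), against 12.1% of all 14237 promoters of the same length. The NRF1 core was present in 13 (19.7%) against 10.1%, and YY1 in 5 (7.6%) against 1.4%. The E-box occurred in 9.1% of the 66 and 7.9% of all promoters, the heat shock element in 6.1% and 4.7%, and the CCAAT box in 28.8% and 34.4%. Median GC content was 59.8% in the 66 windows and 62.8% over all. These shares describe letters, not binding.

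CG-1521 lowered many of these genes in SUM149PT and raised few. At an adjusted p under 0.05, 36 of the 73 were lower and 3 higher with CG-1521 than with vehicle, which is 53.4% called, beside 34.3% of all genes tested (19.9% lower and 14.4% higher). The median log2 change was -0.22, against -0.00 over all genes, and 60 of the 73 changes were negative. No change reached 2-fold. In 41 genes all 3 CG-1521 arrays lay below all 3 vehicle arrays, which was true of 24.7% of all genes, and in 4 they lay above them, true of 19.9%.

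The lower level was visible array by array. The median of the 73 genes was 8.20, 8.10 and 8.07 on the CG-1521 arrays of SUM149PT, against 8.48, 8.45 and 8.48 on its vehicle arrays. With both agents the medians were 8.07, 8.06 and 8.02, against 8.41, 8.34 and 8.44 with estradiol. No array with CG-1521 overlapped an array without it. In SUM190PT the same medians were 7.87, 8.07 and 7.86 with CG-1521 and 8.16, 8.02 and 8.02 with vehicle, and those groups overlapped.

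**Figure D1:**
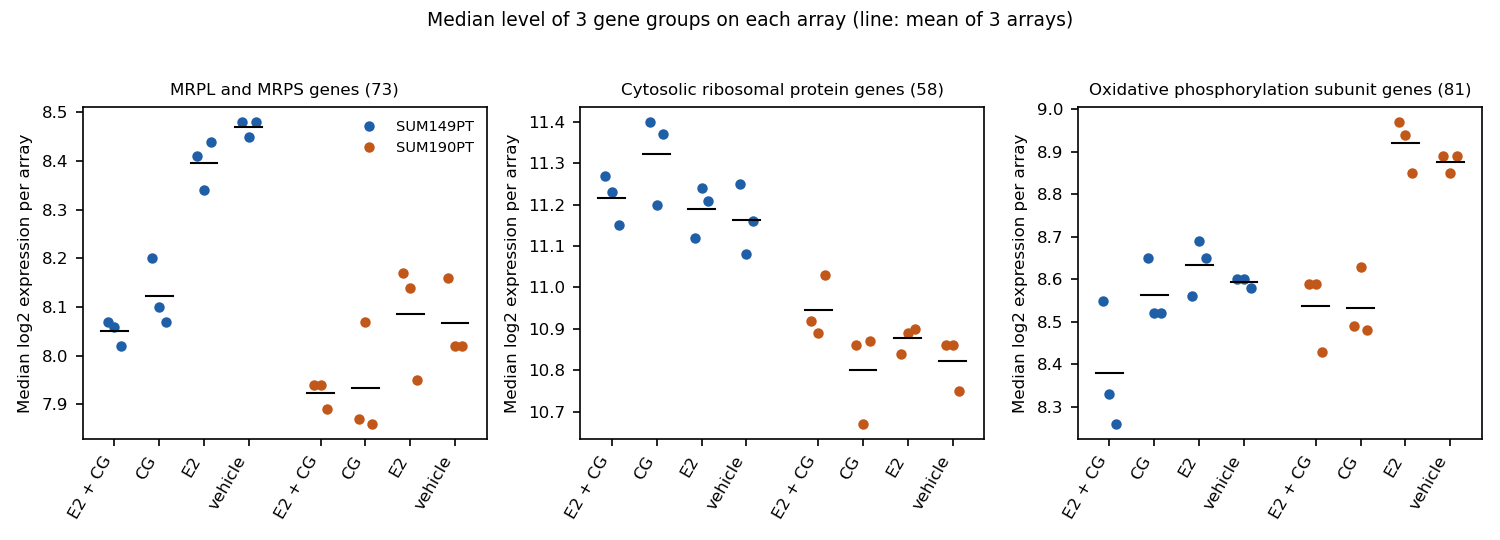
Median log2 expression per array (vertical axis) of the 73 MRPL and MRPS genes, 58 cytosolic ribosomal protein genes and 81 oxidative phosphorylation genes, by group (E2, estradiol; CG, CG-1521), with points for arrays and lines for the mean of 3 arrays. The MRPL and MRPS medians of SUM149PT lie at 8.02 to 8.20 on arrays with CG-1521 and at 8.34 to 8.48 without it; panels have different axes.

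MRPL35, a large-subunit protein with a bacterial counterpart, fell most in SUM149PT. It read 7.79, 7.62 and 7.64 with CG-1521, against 8.70, 8.56 and 8.69 with vehicle, a log2 change of -0.97 (SE 0.093, adjusted p = 6.4e-07) or 48.9% lower. MRPL1, the protein of the mobile L1 stalk, read 8.11, 7.97 and 8.24 with CG-1521 and 9.07, 8.88 and 9.13 with vehicle, a change of -0.92 (SE 0.101, adjusted p = 2.93e-06). MRPL12 forms the stalk that recruits translation factors, and its protein has also been reported to bind the mitochondrial RNA polymerase. Its values were 8.83, 8.97 and 8.71 with CG-1521, against 9.51, 9.73 and 9.71 with vehicle, a change of -0.81 (SE 0.085). None of these groups overlapped, and each of the 3 calls held under all 13 other settings tried, leaving out single arrays included.

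MRPL39 (-0.74), MRPL15 (-0.69) and MRPS27 (-0.64), an RNA-binding pentatricopeptide repeat protein of the small subunit, followed. MRPL18, which is known to take part in import of 5S ribosomal RNA, also fell by 0.64. Among genes in which inherited mutations cause mitochondrial translation defects, MRPL44 changed by -0.43, MRPL3 by -0.32 and MRPS16 by -0.30, a call that ended after quantile normalization (adjusted p = 0.0501). MRPS12, a protein of the decoding centre, fell by 0.54. MRPS22, another such disease gene, was not called (-0.15, adjusted p = 0.182).

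More genes fell than rose in each of the 4 structural classes in SUM149PT. Of 29 large-subunit proteins with a bacterial counterpart, 16 fell and 1 rose, and of the 21 other large-subunit genes, which are mitochondria-specific apart from MRPS18A, a paralogue of bacterial S18, 8 fell and 0 rose. Of 14 small-subunit proteins with a bacterial counterpart, 8 fell and 1 rose, and of the 9 others 4 fell and 1 rose. Class medians lay between -0.15 and -0.32.

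**Figure D2:**
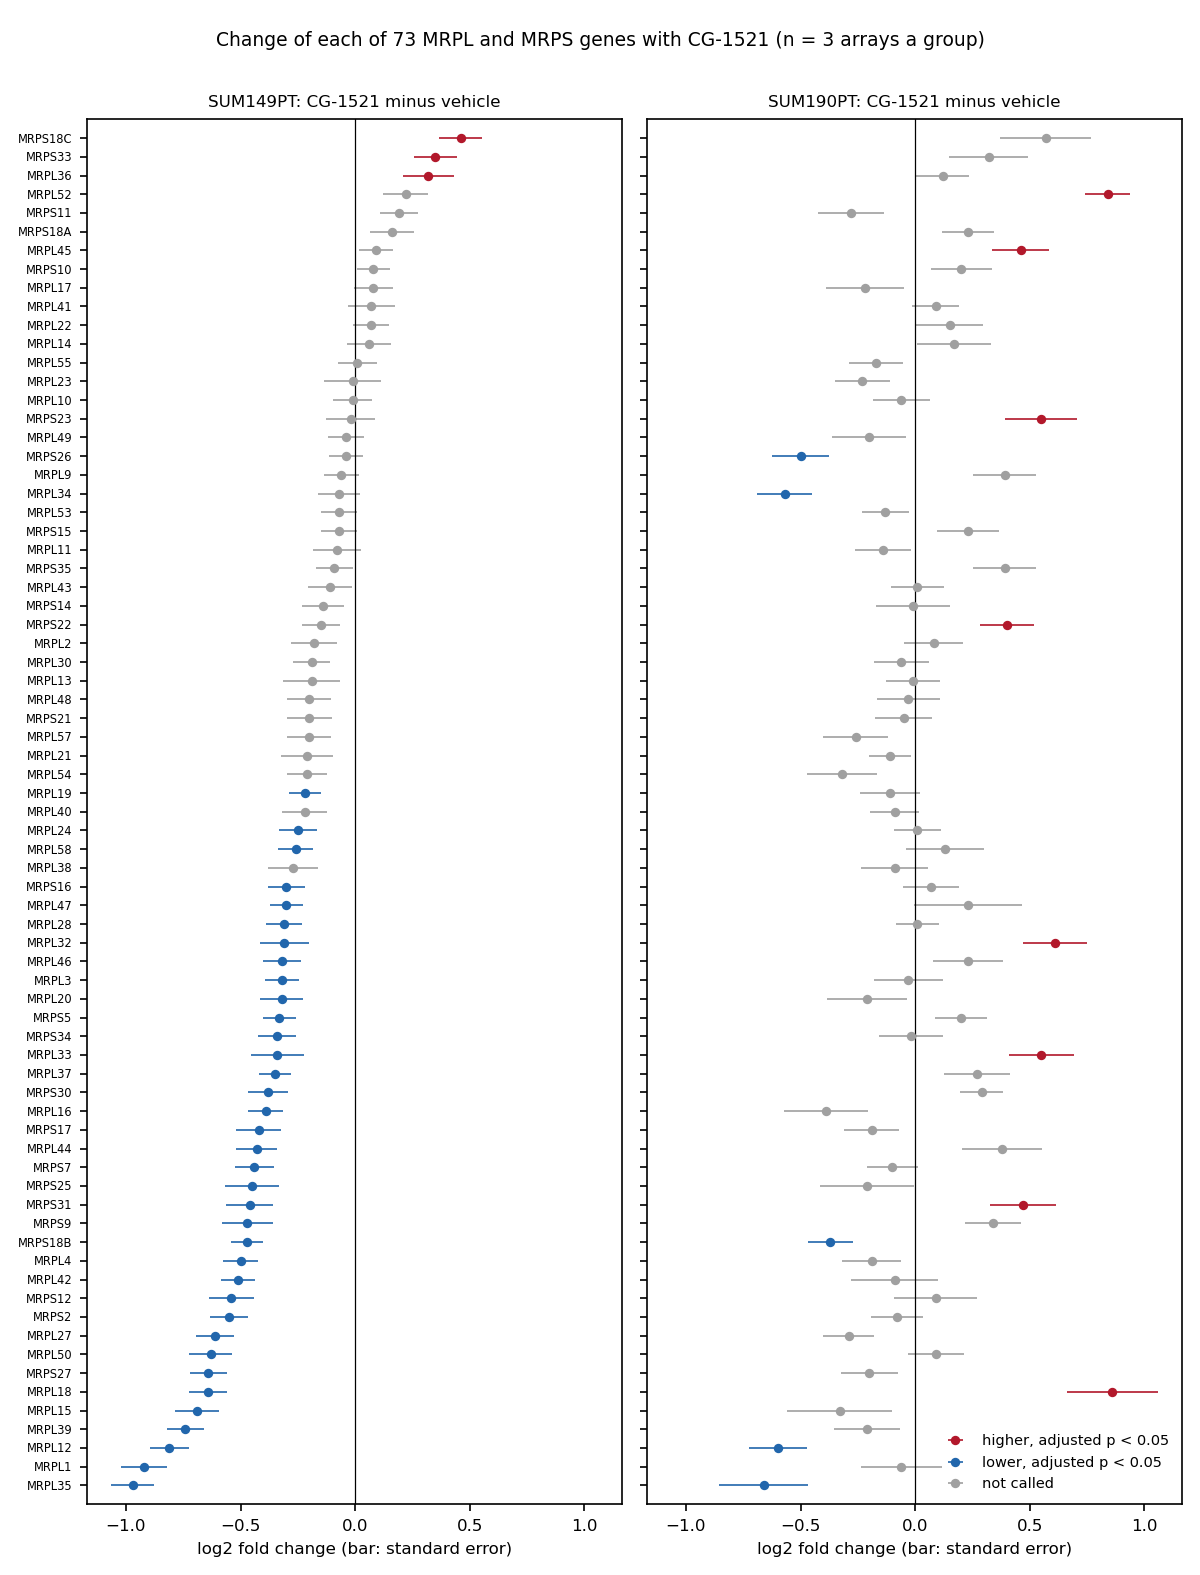
Log2 fold change with CG-1521 against vehicle (horizontal axis, bars for the standard error, 3 arrays a group) of each of the 73 genes, ordered by the change in SUM149PT, with SUM149PT on the left and SUM190PT on the right. In SUM149PT 36 genes are called lower and 3 higher, from MRPL35 at -0.97 to MRPS18C at 0.46; in SUM190PT 5 are called lower and 8 higher.

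The 3 genes that rose were MRPS18C, MRPS33 and MRPL36. MRPS18C, one of the 3 paralogues of bacterial S18, read 5.61, 5.83 and 5.97 with CG-1521, against 5.35, 5.38 and 5.29 with vehicle (log2 change 0.46, SE 0.092, adjusted p = 0.000809). MRPS33 read 7.55, 7.43 and 7.38, against 7.03, 7.12 and 7.15 with vehicle, a change of 0.35. MRPL36, a short large-subunit protein with a bacterial counterpart, read 9.94, 10.06 and 9.88 with CG-1521 and 9.63, 9.72 and 9.59 with vehicle, a change of 0.32 (adjusted p = 0.0389). All 3 separated completely, but a second MRPL36 probe set changed by -0.06, and the MRPL36 call ended when its probe sets were averaged and without any 1 of vehicle arrays 1 and 3 or CG-1521 arrays 1 and 2 (adjusted p up to 0.393).

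The response in SUM149PT was also counted by the motifs shown above, over the 66 genes with a promoter. For the NRF1 core, of the 13 genes with it 3 rose and 4 fell, with a median change of 0.06, and of the 53 without it 0 rose and 30 fell, with a median of -0.30. The CCAAT box lay the other way, with 14 of 19 genes lower (median -0.39) where it was present and 20 of 47 lower (median -0.20) where it was absent. Medians for the ETS core were -0.20 with it and -0.31 without it. The E-box lay as the NRF1 core did, with a median of 0.08 in the 6 genes with it (2 rose and 1 fell) and -0.29 without it. For the heat shock element the medians were -0.01 (4 genes) and -0.29, and for YY1 -0.30 (5 genes) and -0.25. In SUM190PT 1 rose and 0 fell of the 13 with the NRF1 core, and 7 rose and 4 fell of the 53 without it. There the CCAAT box medians were 0.09 with it and -0.03 without it. These splits were not tested.

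With estradiol present, CG-1521 again lowered most of what it changed in SUM149PT. Against estradiol alone, the combination lowered 51 and raised 1 of the 73 (71.2% called), beside 36.9% of all genes called (20.4% lower and 16.5% higher), with a median change of -0.36. In 58 genes the groups did not overlap with the combination lower, against 24.2% of all genes, and in 1 with it higher, against 22.5%. MRPL1 (-0.90), MRPL35 (-0.90), MRPS12 (-0.87), MRPL15 (-0.84), MRPS2 (-0.79) and MRPL39 (-0.77) fell most. The groups compared here share no array with those compared without estradiol. Both comparisons were fitted over all arrays of the line, however, and so share each gene's estimate of spread. Their calls are therefore not independent, and the share of all genes that fell in both is not given. Of the 36 genes that fell without estradiol 35 fell again, 97.2% of those 36 and 68.6% of the 51, and the exception was MRPL19 (-0.14, adjusted p = 0.13). MRPL36 rose again, reading 10.27, 10.49 and 9.93 with both agents and 9.62, 9.70 and 9.73 with estradiol (0.55, adjusted p = 0.00104), except when its probe sets were averaged (adjusted p = 0.0839). MRPS18C (-0.14) and MRPS33 (0.05) were not called there.

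Whether estradiol changed the CG-1521 response was tested as an interaction in SUM149PT (limma). At the adjusted threshold 0 of the 73 genes were called, beside 0.0% of all genes. At the looser unadjusted p under 0.05 there were 13 genes, for which no share of all genes is given. The smallest p belonged to MRPS18C, whose response with estradiol was lower than that without by a log2 difference of -0.60 (SE 0.13, adjusted p = 0.762). The combination against CG-1521 alone also gave 0 calls, beside 0.0% of all genes called, with 63 of 73 changes negative and a median of -0.08. An unadjusted p under 0.05 (limma) was reached by 15 genes, again without a share of all genes. In 18 genes every array with both agents lay below every array with CG-1521 alone, against 5.0% of all genes, and in 0 above them, against 6.3%. MRPS18C read 5.33, 5.30 and 5.19 with both agents and 5.61, 5.83 and 5.97 with CG-1521 alone (-0.53, adjusted p = 0.14), groups that did not overlap. Against vehicle the combination lowered 47 genes and raised 1, beside 37.2% of all genes called (20.9% lower and 16.2% higher). In SUM149PT the combination was the lowest of the 4 groups for 57 of the 73 genes and CG-1521 alone for 9. The distance between a gene's highest and lowest group mean had a median of 0.41, with MRPS10 (0.08) and MRPL35 (0.99) at the ends.

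In SUM190PT rises and falls were nearer in number. CG-1521 raised 8 and lowered 5 of the 73 genes against vehicle, 17.8% called beside 16.6% of all genes (8.32% higher and 8.26% lower), with a median change of -0.02. The share called was thus close to that of all genes. In 13 genes the CG-1521 arrays all lay above the vehicle arrays, against 14.3% of all genes, and in 8 below them, against 17.2%. Centring each array on its median gave 13 higher and 3 lower. Without vehicle array 3 and estradiol array 3 the count was 4 and 4.

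MRPL18 rose most, reading 9.94, 9.76 and 10.20 with CG-1521, against 9.34, 9.22 and 8.76 with vehicle (0.86, SE 0.198, adjusted p = 0.0107). MRPL52, a mitochondria-specific large-subunit protein, read 6.69, 6.6 and 6.6, against 5.89, 5.69 and 5.79 with vehicle (0.84, SE 0.098, adjusted p = 0.000182). MRPL32, whose protein is cut by a protease of the inner membrane during ribosome assembly, read 9.09, 9.22 and 8.97, against 8.60, 8.33 and 8.51 with vehicle (0.61, adjusted p = 0.0109). In all 3 the groups did not overlap. MRPL18 and MRPL52 kept their calls under all 14 other settings tried, and MRPL32 lost its call without vehicle array 2 (adjusted p = 0.0511).

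MRPS23 and MRPL33 (0.55 each), MRPS31 (0.47), MRPL45 (0.46), which anchors the ribosome to the inner membrane, and MRPS22 (0.40) also rose. The calls of MRPS23, MRPS31 and MRPS22 ended without the 2 arrays that stood apart, and each ended under 6 to 8 of 14 other settings. MRPL45 lost its call without them as well (adjusted p = 0.0818), and both MRPL45 and MRPL33 lost it under 5 of the 14.

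The falls in SUM190PT were led by MRPL35, which read 7.14, 7.62 and 7.30 with CG-1521 and 8.24, 7.82 and 7.98 with vehicle (-0.66, SE 0.194, adjusted p = 0.0348). MRPL12 read 7.78, 8.18 and 8.08, against 8.59, 8.69 and 8.57 with vehicle (-0.60, adjusted p = 0.0067). MRPL34 read 7.22, 7.58 and 7.37, against 7.86, 7.89 and 8.12 with vehicle (-0.57, adjusted p = 0.00674). All 3 separated completely, and the MRPL12 and MRPL34 calls held under all 14 other settings. MRPL35 lost its call under 5, with centred arrays among them (adjusted p up to 0.143). MRPS26 (-0.50) and MRPS18B (-0.37) fell too, and ended under 5 and 7 settings.

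**Figure D3:**
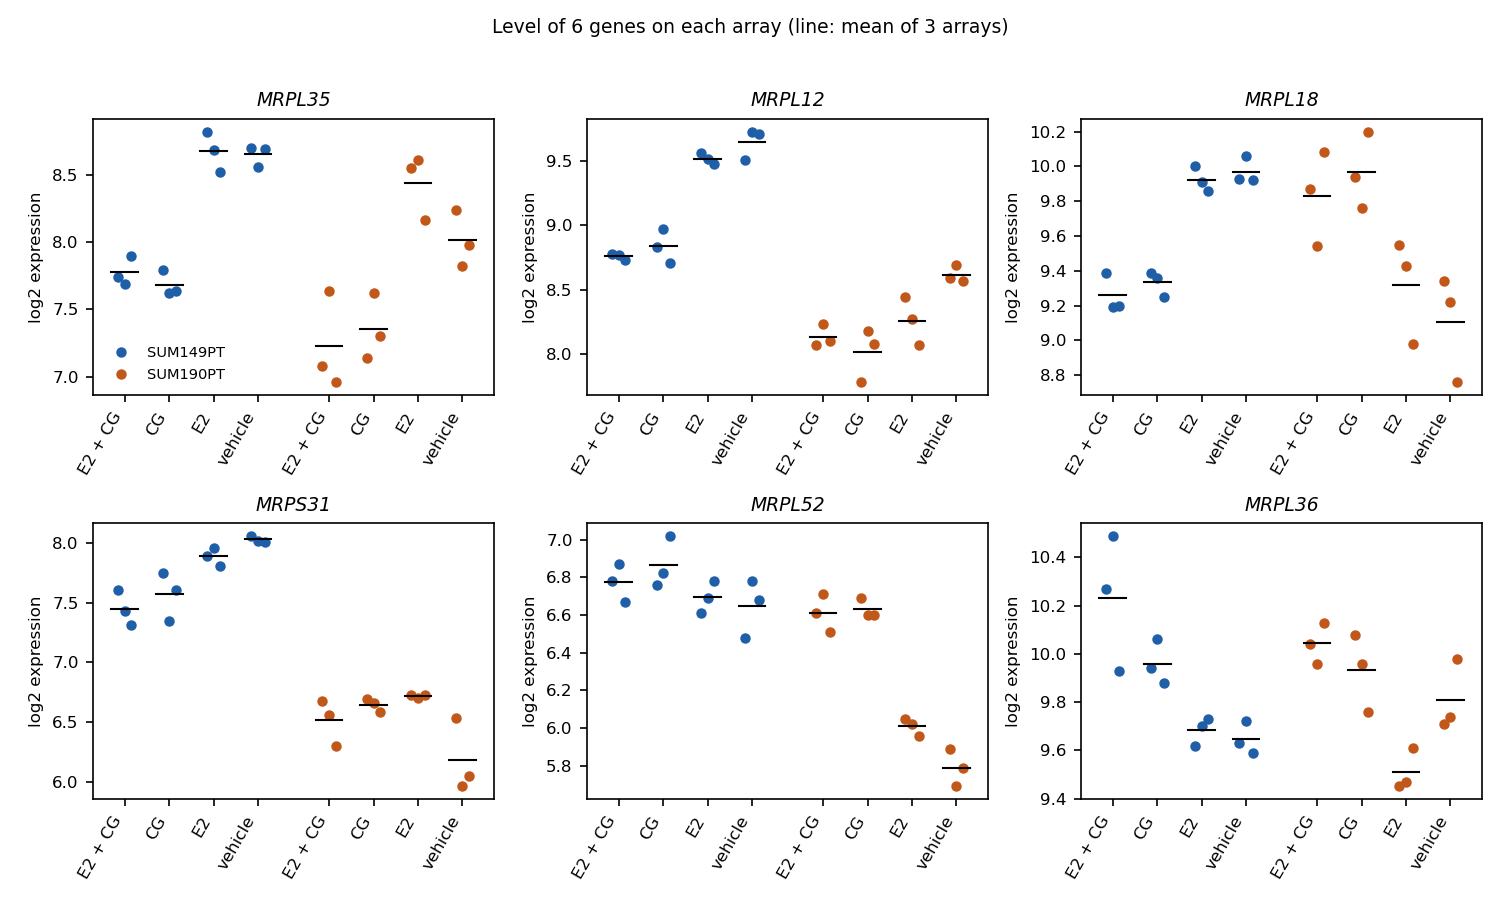
Log2 expression (vertical axis, scaled per panel) of 6 genes by group (E2, estradiol; CG, CG-1521), with points for arrays and lines for the mean of 3 arrays, SUM149PT left and SUM190PT right. Against vehicle, MRPL35 and MRPL12 are lower with CG-1521 in both lines, MRPL18 and MRPS31 lower in SUM149PT and higher in SUM190PT, and MRPL52 higher in SUM190PT.

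With estradiol present, the count in SUM190PT depended on the scaling. Against estradiol alone, the combination lowered 10 and raised 2 genes (16.4% called, beside 25.7% of all genes, 13.2% lower and 12.5% higher), with a median change of -0.12, whereas after quantile normalization 4 were lower and 9 higher. Without the 2 arrays that stood apart 12 were lower and 2 higher. No share of all genes is given for these 2 settings. In 21 genes the groups did not overlap with the combination lower, against 19.2% of all genes, and in 10 with it higher, against 26.4%. MRPL35, MRPL15, MRPL42 and MRPL1 were lower and MRPL52 and MRPL36 higher both on the deposited values and after quantile normalization. MRPL35 read 7.08, 7.64 and 6.96 with both agents, against 8.55, 8.61 and 8.16 with estradiol (-1.22, SE 0.194, adjusted p = 0.00107). MRPL15 read 6.75, 7.57 and 6.98, against 8.13, 8.14 and 7.91 with estradiol (-0.96, adjusted p = 0.0105), and MRPL42 read 7.96, 8.44 and 8.11, against 9.24, 9.17 and 8.78 (-0.90, adjusted p = 0.00506). Neither overlapped, and the MRPL15 call ended without combination array 1 (adjusted p = 0.0508).

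MRPL52 read 6.61, 6.71 and 6.51 with both agents and 6.05, 6.02 and 5.96 with estradiol (0.60, adjusted p = 0.00117). MRPL36 read 10.04, 9.96 and 10.13, against 9.45, 9.47 and 9.61 with estradiol (0.53), while its second probe set changed by -0.07 and its call ended when the probe sets were averaged (adjusted p = 0.104). MRPL1 (-0.61), MRPL17 (-0.54) and MRPL39 (-0.51) fell as well, each losing its call under 4 to 7 settings. MRPL18 changed by 0.51 (adjusted p = 0.0714). Against vehicle the combination raised MRPL52 (0.82), MRPL18 (0.73) and MRPL45 (0.49) and lowered MRPL35 (-0.79) and MRPL12 (-0.49), 6.85% called beside 13.4% of all genes (6.62% higher and 6.77% lower). MRPL52 kept this call under all 14 other settings, whereas MRPL18 and MRPL45 lost theirs under 4 each and MRPL35 and MRPL12 under 3 each, the one without the 2 arrays that stood apart among those for MRPL45. The distance between the highest and lowest group mean in SUM190PT had a median of 0.34, with MRPL43 (0.10) and MRPL35 (1.22) at the ends.

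In SUM190PT, of the 8 genes that rose without estradiol only MRPL52 was called higher again with it. After quantile normalization MRPL18 (0.64), MRPL33 (0.45) and MRPL45 (0.42) were also called higher with estradiol present. Of the 5 genes that fell without estradiol only MRPL35 was called lower again. A call in 1 comparison and not in the other does not show a difference, and the interaction called 0 of the 73 genes. The share of all genes called in both comparisons is not given. Of the 73 genes, only MRPL35 fell in all 4 comparisons of CG-1521 with its matched control, and only MRPL10, MRPL43 and MRPS18A were called in none of the 14 comparisons made.

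Estradiol alone gave 0 calls in SUM149PT (limma), beside 0.0% of all genes called, and its changes ran from -0.16 to 0.27. There 4 genes reached an unadjusted p under 0.05, for which no share of all genes is given. In SUM190PT estradiol gave 0 calls as well, beside 0.00543% of all genes called. At the looser unadjusted p under 0.05 (limma) there were 22 genes, for which no share of all genes is given. Without the 2 arrays that stood apart estradiol also gave 0 calls. The estradiol arrays lay above all vehicle arrays for 13 genes, against 11.6% of all genes, and below them for 10, against 16.7%. Replicate numbers paired the arrays of this comparison, and with the replicate as a block 2 genes rose, MRPL42 (0.66, adjusted p = 0.0469) and MRPS31 (0.54, adjusted p = 0.0488). These are 2.74% of the 73, close to the 2.82% of all genes called with the block. MRPL42 read 9.24, 9.17 and 8.78 with estradiol, against 8.74, 8.44 and 8.02 with vehicle, higher in all 3 pairs. MRPS31 read 6.73, 6.70 and 6.73, against 6.53, 5.96 and 6.05 with vehicle. Leaving out vehicle array 1 gave 10 calls, 9 of them higher, or 13.7% of the 73, where 12.3% of all genes were called.

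The interaction of estradiol with CG-1521 in SUM190PT also gave 0 calls (limma), beside 0.516% of all genes called. MRPS31 had the smallest p (-0.68, adjusted p = 0.0929). At the looser unadjusted p under 0.05 there were 16 genes, for which no share of all genes is given. Without vehicle array 1 the interaction gave 5 calls, all negative, or 6.85% of the 73, where 8.99% of all genes were called. The combination against CG-1521 gave 0 calls (limma), with the replicate block too, beside 0.0% of all genes called in the fit without the block. Only MRPS9 reached an unadjusted p under 0.05, and no share of all genes is given for that threshold.

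Between the lines, CG-1521 responses differed for 24 of the 73 genes, 21 more negative in SUM149PT and 3 more positive, beside 20.6% of all genes called (11.6% more negative and 9.01% more positive). After centring the count was 27 and 0, and after quantile normalization 13 and 3. Without SUM190PT vehicle array 3 it was 14 and 1, and without both arrays that stood apart 17 and 2. For these other settings the share of all genes called is not given. MRPL18 differed most, by -1.50 (SE 0.221, adjusted p = 5.1e-05), and it fell by 0.64 in SUM149PT and rose by 0.86 in SUM190PT. MRPS31 (-0.93), MRPL32 (-0.92) and MRPL33 (-0.88) were likewise lower with CG-1521 in SUM149PT and higher in SUM190PT, without estradiol. These differences held under all 20 other settings tried. With estradiol present, the SUM190PT rises of MRPL18, MRPS31, MRPL32 and MRPL33 were not called. After quantile normalization MRPL18 (0.64) and MRPL33 (0.45) were called there. MRPL1 (-0.86) fell in SUM149PT and changed by -0.06 in SUM190PT, and MRPS9 (-0.81) fell by 0.47 in SUM149PT and changed by 0.34 in SUM190PT (adjusted p = 0.072). The disease genes MRPL44 (-0.81, adjusted p = 0.00636) and MRPS22 (-0.55, adjusted p = 0.00765) also differed, under all 20 other settings, and the decoding-centre gene MRPS12 (-0.63, adjusted p = 0.0384) differed but lost its call under 9 of them. MRPL52 differed by -0.62, with a change of 0.22 in SUM149PT (adjusted p = 0.104) and a rise of 0.84 in SUM190PT.

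MRPL12, MRPL35 and MRPS18B fell in both lines without estradiol. They were 8.3% of the 36 falls in SUM149PT and 3 of the 5 in SUM190PT. Of the 8 genes that rose in SUM190PT, 4 also fell in SUM149PT, where 36 of the 73 genes fell. The 3 shared falls thus do not by their number show a shared response. The overlap was not tested, and no share of all genes is given for it. The MRPL12 responses of the lines were not called different (-0.21, adjusted p = 0.356).

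**Figure D4:**
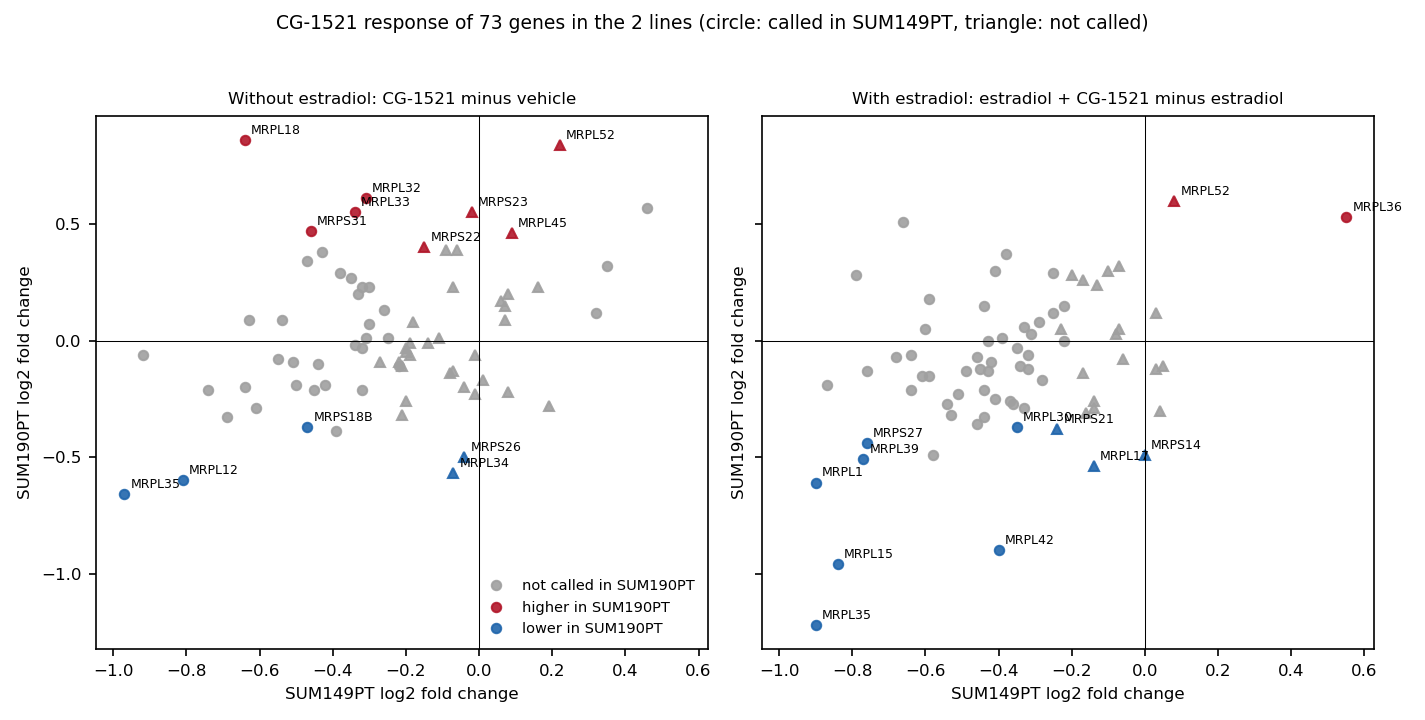
Log2 fold change with CG-1521 in SUM149PT (horizontal axis) and SUM190PT (vertical axis) for the 73 genes, without estradiol on the left and with it on the right; circles were called in SUM149PT and triangles were not, and colours give the SUM190PT call. On the left MRPL18 lies at -0.64 and 0.86, and MRPL35 and MRPL12 are low in both lines; on the right MRPL35 lies at -0.90 and -1.22.

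Most of these genes stood higher in SUM149PT than in SUM190PT with vehicle alone. Between vehicle groups 44 of 73 were higher and 9 lower in SUM149PT than in SUM190PT, 72.6% called beside 46.7% of all genes (24.5% higher and 22.1% lower), with a median difference of 0.37 against -0.02 over all genes. Quantile normalization gave 37 higher and 14 lower, and leaving out both SUM190PT arrays that stood apart gave 38 and 10. These counts also lack the share of all genes under the same setting. The groups did not overlap for 48 genes higher in SUM149PT, against 27.2% of all genes, and 13 lower, against 25.1%. Of 29 large-subunit genes with a bacterial counterpart 21 were higher and 2 lower, and of the 21 other large-subunit genes 11 were higher and 4 lower. Of 14 small-subunit genes with a bacterial counterpart 6 were higher and 3 lower, and of the 9 others 6 were higher and 0 lower.

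MRPS31 showed the widest gap. It read 8.06, 8.02 and 8.01 in SUM149PT and 6.53, 5.96 and 6.05 in SUM190PT, a log2 difference of 1.85 (SE 0.129, adjusted p = 3.66e-11) or 3.61-fold. MRPL57, a small mitochondria-specific protein, read 8.18, 8.13 and 8.39 in SUM149PT and 7.02, 6.74 and 6.89 in SUM190PT (1.35, adjusted p = 2.63e-09). MRPS18B read 9.42, 9.37 and 9.39, against 8.05, 8.12 and 8.12 in SUM190PT (1.30, adjusted p = 2.32e-12). MRPL50 (1.22), MRPS23 (1.14), MRPL16 (1.10) and MRPL12 (1.03) differed by at least 2-fold in the same direction.

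The largest differences the other way were those of MRPS30, MRPS14 and MRPL58. MRPS30, which sits in the large subunit, read 7.46, 7.64 and 7.67 in SUM149PT and 8.66, 8.55 and 8.45 in SUM190PT (-0.96, adjusted p = 1.95e-09). MRPS14 read 7.04, 7.10 and 7.16, against 8.12, 7.61 and 8.23 in SUM190PT (-0.89). MRPL58, a large-subunit protein that can release peptides from stalled ribosomes, read 8.57, 8.59 and 8.70, against 9.69, 9.57 and 9.03 in SUM190PT (-0.81). These groups did not overlap. MRPS7 (-0.70), MRPL20 (-0.67) and MRPS11 (-0.48) were lower too.

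The calls were uneven over the chromosomes. MRPS31 and MRPL57 are the 2 genes on chromosome 13, where 45.7% of all genes were higher in SUM149PT. All 7 genes on chromosome 11 were higher, against 29.4% of all its genes, and 5 of 6 on chromosome 6 (35.9% of all). Of 4 on chromosome 5, 0 were higher and 1, MRPS30, was lower, where 35.7% of all genes were lower. Other chromosomes did not go with their background. The 2 genes on chromosome 12 were higher, where 22.9% of all genes were higher and 25.1% lower. MRPL52 on chromosome 14 was higher, where 29.1% of all genes were lower. On chromosome 16, 0 of 2 genes were called lower, against 39.0% of all.

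Other components of mitochondrial translation were also measured, and their counts stand beside 19.9% of all genes lower and 14.4% higher in SUM149PT. There CG-1521 lowered 13 and raised 2 of 26 ribosome assembly factors, led by the ribosomal RNA methyltransferases MRM1 (-0.98) and MRM2 (-0.76) and by MTERF3 (-0.67). It lowered 7 and raised 0 of 13 translation factors, led by SLIRP (-0.79), an RNA-binding partner of LRPPRC (-0.52), and TSFM (-0.68). Of 16 mitochondrial aminoacyl-tRNA synthetases 10 fell and 2 rose, with NARS2 at -1.08, LARS2 at -0.88 and MARS2 at -0.81. TFAM, which packages mitochondrial DNA and starts its transcription, fell by 1.14 (adjusted p = 5.18e-08), and 6 of 11 genes of mitochondrial transcription and RNA processing were lower. In SUM190PT TFAM changed by -0.42 (adjusted p = 0.125) without estradiol and fell by 0.93 with estradiol present (adjusted p = 0.00312). In SUM190PT, where 8.32% of all genes were higher and 8.26% lower, CG-1521 raised 4 and lowered 0 of the 26 assembly factors, a share near that of all genes called. None of the synthetases was called. An unadjusted p under 0.05 (limma) was reached by 4 synthetases, without a share of all genes at that threshold. With estradiol present, 13.2% of all genes were lower and 12.5% higher there. The combination then lowered METTL15 (-0.95), NARS2 (-0.84), WARS2 (-0.78), GUF1 (-0.72) and TSFM (-0.63), among others, and raised the assembly factor NGRN (0.54).

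DAP3 and PTCD3, small-subunit proteins without an MRPS symbol, went opposite ways in SUM149PT. DAP3, a GTP-binding protein also described in cell death, changed by 0.76 with CG-1521 there (adjusted p = 9.58e-07) and by 0.88 in SUM190PT (adjusted p = 0.0042), a rise in both lines. PTCD3 fell by 0.45 in SUM149PT and changed by -0.12 in SUM190PT (adjusted p = 0.458). CHCHD1 and GADD45GIP1 were not called with CG-1521 against vehicle in either line. With estradiol present in SUM190PT, PTCD3 fell by 0.34 (adjusted p = 0.0295) and GADD45GIP1 rose by 0.40 (adjusted p = 0.023).

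Cytosolic ribosomal proteins and the subunits of oxidative phosphorylation, the pathway that mitochondrial ribosomes serve, were set beside these genes. Of 58 cytosolic ribosomal protein genes, CG-1521 raised 6 and lowered 4 in SUM149PT (median 0.06) and raised 4 and lowered 1 in SUM190PT (median 0.08). Of 81 oxidative phosphorylation subunit genes, 18 fell and 3 rose in SUM149PT (median -0.12), and 29 fell and 0 rose in SUM190PT (median -0.26). Of all genes, 19.9% were lower and 14.4% higher in SUM149PT, and 8.26% lower and 8.32% higher in SUM190PT. Without estradiol, the share of oxidative phosphorylation genes lower in SUM149PT was thus near that of all genes. The symbol rule for this list took in the pseudogenes ATP5F1EP2 and UQCRBP1 and the ATP synthase inhibitor ATP5IF1. Without these 3, an alternative chosen after seeing the data, the counts over 78 genes were 18 lower and 3 higher in SUM149PT and 29 lower and 0 higher in SUM190PT. With estradiol present, 39 of the 78 were lower and 0 higher in SUM149PT (median -0.23). There 20.4% of all genes were lower and 16.5% higher. In SUM190PT 37 were then lower and 2 higher (median -0.39), where 13.2% of all genes were lower and 12.5% higher. Without estradiol, the difference of responses between lines was called positive for 15 and negative for 0 oxidative phosphorylation genes. For mitochondrial ribosomal protein genes it was called positive for 3 and negative for 21. Over all genes it was called positive for 9.01% and negative for 11.6%. Vehicle levels of oxidative phosphorylation genes were higher in SUM149PT for 20 and lower for 29, or 18 and 29 without those 3. Of all genes 24.5% were higher and 22.1% lower.

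**Figure D5:**
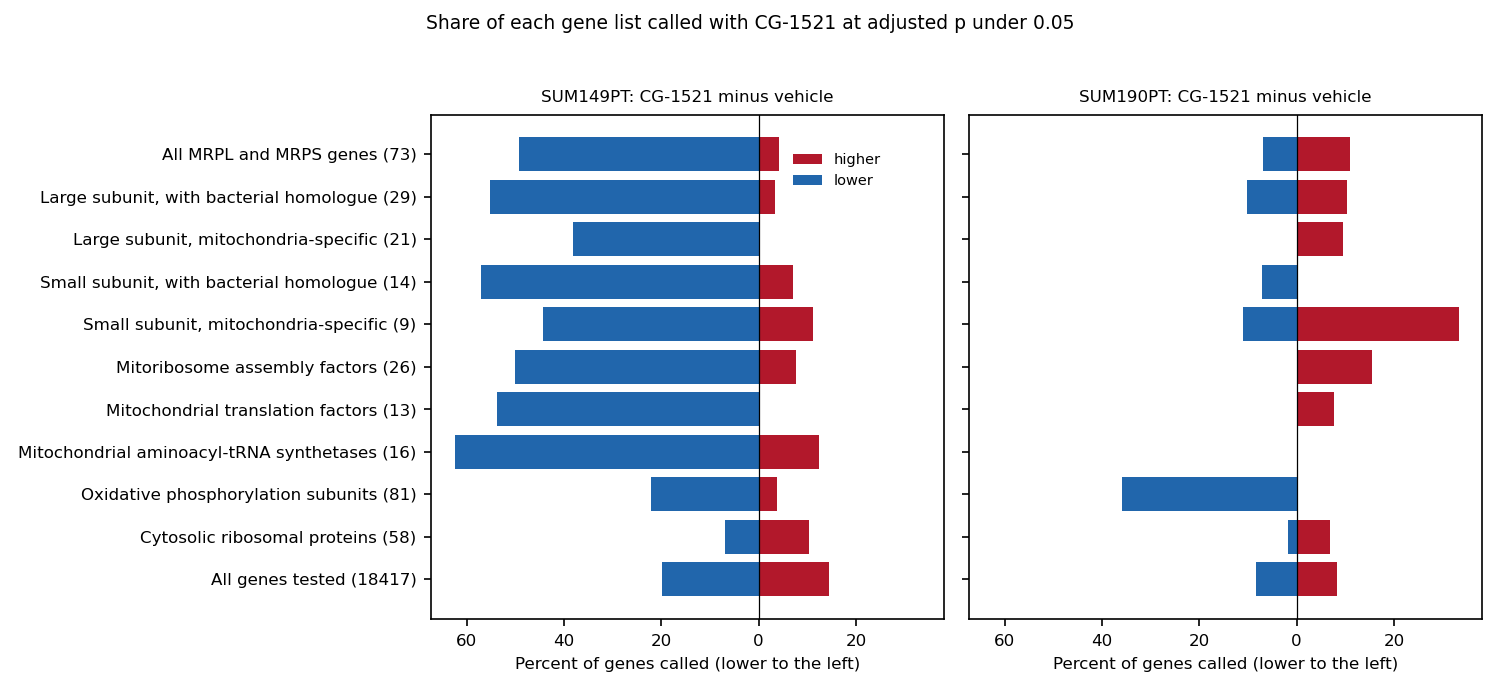
Percent of each gene list called at adjusted p under 0.05 with CG-1521 against vehicle (horizontal axis, lower to the left of 0 and higher to the right), for SUM149PT on the left and SUM190PT on the right, with the number of genes in parentheses. In SUM149PT 49.3% of the 73 genes are lower, beside 19.9% of all genes; in SUM190PT the oxidative phosphorylation subunits stand out on the lower side with 35.8% called.

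Regulators of mitochondrial gene expression were also measured. NRF1 (-0.52), GABPB1 (-0.51) and GABPA (-0.46) fell with CG-1521 in SUM149PT, where 5 of 9 regulators were lower and 1, PPARGC1A, higher (0.39). In SUM190PT PPARGC1A, a coactivator of mitochondrial biogenesis, fell by 1.92 (adjusted p = 0.000196), while MYC (0.72) and GABPB1 (0.61) rose. The difference of responses was 2.31 for PPARGC1A, -1.13 for GABPB1 and -1.07 for MYC. PPARGC1A was lower in SUM149PT vehicle cells than in SUM190PT vehicle cells by a log2 difference of -3.82. Whether these regulators had a part in the changes of the ribosomal protein genes was not tested.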

How the data were processed

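Total RNA from 24 cultures was labelled after amplification and hybridized to Affymetrix Human Gene 1.0 ST arrays, per the labels' protocols. The deposited values are log2 expression per probe set, made by the authors with RMA in Affymetrix Expression Console, per the submitters' processing notes; whether the lines were normalized together is not given in the sources used here. Such scaling gives arrays similar distributions, so changes are relative to the other genes.

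Of 33297 probe sets, 19460 named 1 gene, 1754 several and 12083 none; 19429 of the first matched RefSeq, and 18417 genes remained, each by its brightest probe set. All 73 members matched. Comparisons used limma 3.58.1 under R 4.3.3 (lmFit and eBayes, two-sided) over the 12 arrays of a line, or all 24 between lines, with Benjamini-Hochberg adjustment over all genes and calls at an adjusted p under 0.05. Shares of all genes called are at this adjusted threshold. Counts at an unadjusted p under 0.05 are given without the share of all genes at that threshold. Replicates are the 3 arrays a group, and their number limits the precision. The fits were tested on simulated data.

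The members and gene lists were chosen with earlier results of these data known. Named were, in CG-1521 against vehicle, in the combination against estradiol and in both comparisons between lines, up to 6 called rises and 6 called falls; in the other comparisons up to 4 each way; where fewer than 4 passed, also the 3 with the smallest p; from each other list up to 3 called genes per comparison; and always MRPL12, MRPL18, MRPS12, MRPL44, MRPS22, MRPS16 and MRPL3. Promoters of the genes shown, and a few genes outside this rule (MRPL19, MRPL10, MRPL43, MRPS18A, MRPL45, CHCHD1, GADD45GIP1 and LRPPRC among them), were chosen after their values were seen.

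Replicate numbers were taken to pair arrays where deviations from group means correlated above 0.1 in all 3 pairs: SUM190PT estradiol with vehicle (0.443, 0.229 and 0.729) and SUM190PT combination with CG-1521 (0.518, 0.434 and 0.502). Other settings were the replicate block, quantile normalization, centring on array medians, leaving out the dimmest 50% of genes, averaging probe sets, a trended robust prior, only the groups compared, leaving out the 2 SUM190PT arrays that stood apart, and leaving out each array.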

Additional observations from a re-analysis of the deposited data

Results flagged for a closer look

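The CG-1521 response differed between the lines, by limma's interaction test with an adjusted p under 0.05, for 24 of the 73 genes. Each value is the log2 response of SUM149PT minus that of SUM190PT. MRPL18 (-1.50), MRPS31 (-0.93), MRPL32 (-0.92) and MRPL33 (-0.88) fell in SUM149PT and rose in SUM190PT. MRPL1 (-0.86), MRPS9 (-0.81), MRPL44 (-0.81), MRPL50 (-0.72), MRPS30 (-0.67), MRPS12 (-0.63), MRPL37 (-0.62), MRPL46 (-0.55), MRPS5 (-0.53), MRPL39 (-0.53), MRPS2 (-0.47) and MRPS27 (-0.44) fell in SUM149PT and were not called in SUM190PT. MRPL52 (-0.62), MRPS23 (-0.58) and MRPS22 (-0.55) were not called in SUM149PT and rose in SUM190PT, and MRPS35 (-0.48) and MRPL9 (-0.46) were called in neither line. MRPL34 (0.50) and MRPS26 (0.46) were not called in SUM149PT and fell in SUM190PT, and MRPS11 (0.47) was called in neither line (0.19 in SUM149PT and -0.28 in SUM190PT). Of the 12 chosen by the naming rule, MRPL18, MRPS31, MRPL32, MRPL33, MRPL1, MRPS9, MRPL44 and MRPS22 kept their call under all 20 other settings tried, whereas MRPL34 lost it under 6, MRPS12 under 9, MRPS26 under 10 and MRPS11 under 11. Dose and medium differed between the lines as well, and their part was not tested.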

How the results depend on the processing

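In SUM149PT the counts of genes called with CG-1521 stayed within 1.5 times under every setting tried: without estradiol 39 genes were called, 33 after quantile normalization and 34 to 38 when single arrays were left out, with estradiol 52 and 43 to 48, and for the combination against vehicle 48 and 41 to 46. Counts in SUM190PT moved more. CG-1521 against vehicle called 13 genes, 7 with only the groups compared, 8 without the 2 arrays that stood apart, and 5 to 17 when single arrays were left out (5 without CG-1521 array 1, 7 without CG-1521 array 3, and 6 without vehicle array 2 or 3). The combination against vehicle called 5, 10 with the replicate block, 10 without the dimmest 50% of genes and 1 to 8 with single arrays left out (8 without vehicle array 1, 3 without vehicle array 2, 1 without combination array 1 and 2 without combination array 3). The combination against estradiol called 12, and 4 to 12 with single arrays left out (5 without estradiol array 1 or 2 or combination array 3, and 4 without combination array 1). Estradiol against vehicle called 0, 2 with the replicate block and 0 to 10 with single arrays left out, 10 without vehicle array 1; the interaction called 0, and 0 to 5, the 5 without vehicle array 1. Between lines the response difference called 24, and 15 to 31 with single arrays left out (15 without SUM190PT vehicle array 3), and the vehicle difference 53, and 46 to 49. The replicate block moved no other count of calls by over 1.5 times, and no named gene changed direction past the threshold. The cause of these differences was not tested. Counts under other settings are given here without the share of all genes called at those settings. With 3 arrays a group, small changes in SUM190PT, where the median SD of a gene in a group was 0.123 to 0.161, against 0.071 to 0.103 in SUM149PT, are measured less closely.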
